A study of Homo sapiens with 12 samples.

Results

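The genes examined here are 44 symbols of the type I and type II interferon response and of peptide presentation on MHC class I, out of 16451 gene symbols with at least 1 coding-sequence read in the data. The genes were listed by name, but with earlier results of these data known. They fall into 35 interferon-stimulated genes (28 effectors, 4 transcription factors and 3 sensors of foreign or misplaced nucleic acid) and 9 MHC class I genes. The cells were IMR90, a lung fibroblast line with a limited lifespan. Proliferating IMR90 at early passage (Pro) were compared with senescent IMR90 (Sen) that had been passaged in serum-containing medium until they stopped dividing. Replicative exhaustion was the only treatment named for the senescent cells, and the labels list no interferon or other agent for either state. The RNA-seq tables of the proliferating cells do carry a name tag close to that of the solvent DMSO, which the labels leave unexplained, so that a solvent treatment of these cultures is not known. Separate cultures, 3 per state, were lysed with cycloheximide, and each lysate gave a Ribo-seq library and a poly(A)-selected RNA-seq library, 12 libraries in all. The line was used as 2 isolates, and which isolate gave which library is not given in the sources used here.

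Interferons are secreted proteins that bind receptors on the cell surface, activate the kinases JAK1, TYK2 and JAK2, and send STAT2, IRF9 and other factors to the nucleus, where they switch on genes that block viral replication. The promoters of many such genes carry an interferon-stimulated response element (ISRE), bound by complexes that hold STAT2 and IRF9 and by IRF1, or a gamma-activated site (GAS), bound by STAT dimers. MHC class I molecules are made of an HLA heavy chain and beta-2-microglobulin (B2M), and are loaded in the endoplasmic reticulum with peptides that the proteasome cuts, the TAP1-TAP2 transporter carries in and tapasin (TAPBP) helps to fit. Class I genes respond to interferons, but also to NLRC5 and to NF-kappaB.

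Promoter stretches of up to 30 bases are shown for some genes on which the comparison turns. Only promoters with a motif match were picked, so the stretches do not show whether a motif goes with the direction of change. They were taken from RefSeq on the GRCh38.p14 build, 5′ to 3′ on the strand of the gene, with the matched motif in capitals. A window of 300 bases around the start was available for 35 of the 44 genes. The first pair comes from IFI6 (minus strand), at chr1:27672329-27672358 and chr1:27672288-27672317, and the rest from ISG15 (plus strand, chr1:1013380-1013409), MX1 (plus, chr21:41420559-41420588), OAS3 (plus, chr12:112938452-112938481), IFITM3 (minus, chr11:320876-320905), IRF1 (minus, chr5:132490879-132490907), B2M (plus, chr15:44711369-44711398), TAP1 (minus, chr6:32853813-32853842), TAP2 (minus, chr6:32838778-32838807) and TAPBP (minus, chr6:33314079-33314108).
IFI6, 156 bases before the start: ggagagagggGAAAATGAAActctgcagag
IFI6, 115 bases before the start: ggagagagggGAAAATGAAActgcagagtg
ISG15, 107 bases before the start: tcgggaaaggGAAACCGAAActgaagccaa
MX1, 11 bases after the start: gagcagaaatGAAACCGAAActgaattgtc
OAS3, 12 bases before the start: agccgggcggGAAAACGAAAccagaaatcc
IFITM3, 35 bases before the start: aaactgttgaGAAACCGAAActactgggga
IRF1 (GAS), 124 bases before the start: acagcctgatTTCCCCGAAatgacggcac
B2M, 138 bases before the start: ctaagaaaagGAAACTGAAAacgggaaagt
TAP1 (other strand), 128 bases before the start: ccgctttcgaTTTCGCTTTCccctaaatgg
TAP2, 58 bases before the start: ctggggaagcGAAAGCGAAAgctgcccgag
TAPBP, 20 bases before the start: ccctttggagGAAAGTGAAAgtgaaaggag

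The ISRE letters GAAANNGAAA, searched on both strands, were found in 16 of 28 interferon-stimulated promoters (57.1%) and in 5 of 7 class I promoters (71.4%), against 3.57% of 35116 RefSeq promoters of the same length. The GAS letters TTCNNNGAA were found in 7 of 28 interferon-stimulated promoters (25%), in 0 of 7 class I promoters and in 7.66% of all. Both motifs can overlap, as in the IFITM1 and BST2 promoters. HLA-B, HLA-C and DDX58, which were higher in senescent mRNA, held neither motif in this window. The same was true of TRIM25, PARP9 and XAF1, which were lower. ISRE letters were also found for IFIH1 and PARP14, which were lower. A match is a string of letters and not a measured binding site.

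RNA-seq libraries held 7895293 to 14133378 reads over coding symbols and Ribo-seq libraries 54421 to 1718521 reads in coding sequences. The Ribo-seq libraries Pro 1 (54421 reads) and Sen 2 (54708 reads) were by far the shallowest, so that 3 reads there stand for 50.5 and 51.2 CPM, against 0.22 to 0.366 CPM in RNA-seq. CPM is the count of reads per 1000000 reads of the library, scaled for library composition. As a check of the state labels, CDKN1A, the p21 cell cycle inhibitor, was higher in senescent cells (log2 fold change 1.60 in mRNA) and lamin B1, LMNB1 (-2.84), and HMGB1 (-1.38) were lower, each without overlap of the 3 and 3 libraries. All 10 fibroblast markers (COL1A1, VIM and others) were detected. Of 8 leukocyte markers, only the lysosomal gene CD68 passed the filter on low counts (log2 fold change 0.70), CD3E and TYROBP were at 0 in every RNA-seq library, PTPRC had 6 reads in all, and the summed level of the list ranged from 19.9 to 21.7 CPM in Pro and from 32.9 to 35.9 CPM in Sen. Of 5 plasmacytoid dendritic cell markers, CLEC4C and LILRA4 were at 0, and the sum ranged from 29.6 to 32.4 CPM in Pro and from 22.4 to 25.6 CPM in Sen. Only TCF4 of these passed the filter, at 29.1 to 32.1 CPM in Pro and 22.2 to 25.3 CPM in Sen. The epithelial list summed to 293 to 311 CPM in Pro and 237 to 261 CPM in Sen, with SFTPC at 0 and only KRT18 and KRT8 past the filter. The endothelial list summed to 54.4 to 62.0 CPM in Pro and 93.7 to 105 CPM in Sen, with CDH5 at 0. Nearly all of that sum was TEK, the only gene of it past the filter, at 53.8 to 61.4 CPM in Pro and 92.7 to 105 CPM in Sen. The part of these other cell types in the results below was not tested. In such bulk lysates, more cells with a gene switched on and more RNA per cell cannot be told apart.

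In mRNA, 38 of the 44 genes had enough reads to be tested and 31 passed an adjusted p of 0.15 (edgeR quasi-likelihood test, Benjamini-Hochberg over all genes), 24 of them higher and 7 lower in senescent cells. Over all 12787 genes tested, 73.6% passed, 36.6% higher and 37% lower, so that passing by itself does not set a gene apart. Of the interferon-stimulated genes 17 of 29 were higher and 6 lower, with a median log2 fold change of 0.43 and a range from -1.45 to 3.50. Of the class I genes 7 of 9 were higher and 1 lower, with a median of 0.75 and a range from -0.48 to 1.18. The median over all genes was -0.01. The 3 Pro and 3 Sen libraries did not overlap for 21 of the 29 and for 9 of the 9, against 67.8% of all genes. IFI27, OAS2 and OASL passed the filter on their senescent libraries alone, and the other 26 interferon-stimulated genes held 14 higher and 6 lower calls, with a median of 0.28 and values from -1.45 to 3.09. The difference between the lists was not tested, since the genes were chosen with earlier results of these data known.

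**Figure D1:**
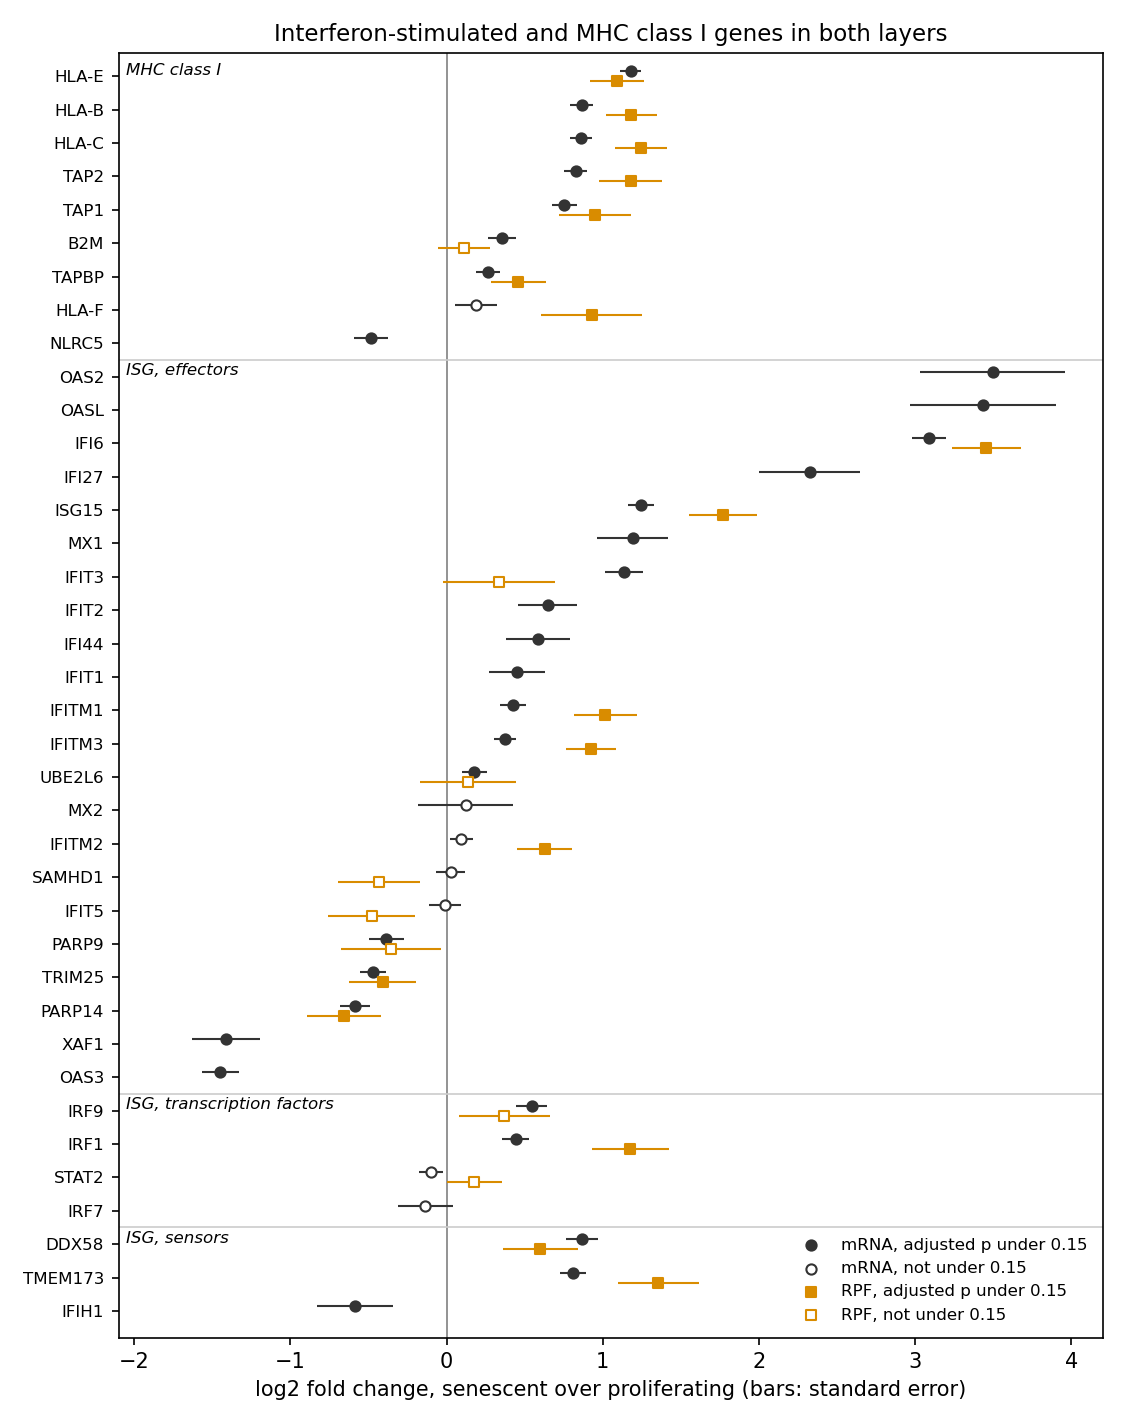
Log2 fold changes of the 38 tested genes, senescent over proliferating, in mRNA (circles) and in ribosome-protected fragments (RPF, squares), by role, with bars of 1 standard error and filled symbols for an adjusted p under 0.15. OAS2, OASL and IFI6 stand at 3.09 to 3.50 in mRNA while OAS3 and XAF1 stand at -1.45 and -1.41, and 7 of the 9 class I genes lie between 0.26 and 1.18.

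Among the effectors, IFI6, a small protein of mitochondria and endoplasmic reticulum that interferon induces strongly, rose most at well-measured levels. IFI6 mRNA was at 14.0, 13.4 and 11.6 CPM in Pro and at 100.2, 102 and 129 CPM in Sen. The groups did not overlap, and the log2 fold change was 3.09 ± 0.11 (SE, n = 3 per state, edgeR adjusted p = 6.09e-16). ISG15, the ubiquitin-like modifier that is joined to target proteins, stood at 30.6, 27.7 and 27.1 CPM in Pro and at 71.2, 65.2 and 64.9 CPM in Sen. Its log2 fold change was 1.24 ± 0.08 (edgeR adjusted p = 2.17e-11). MX1, a dynamin-like GTPase that traps viral nucleocapsids, was low, at 2.68, 1.37 and 1.67 CPM in Pro and 4.47, 4.32 and 3.84 CPM in Sen, and its log2 fold change was 1.19 ± 0.23 (edgeR adjusted p = 9.02e-05). Its paralogue MX2 stood at about 1 CPM in both states (mean 1.09 in Pro and 1.15 in Sen), with a log2 fold change of 0.12 ± 0.30 (edgeR adjusted p = 0.754). IFI27, a protein of the same family as IFI6, had 3, 9 and 6 reads in Pro and 38, 32 and 31 in Sen, and its log2 fold change was 2.32 ± 0.33 (edgeR adjusted p = 1.89e-06). Every Sen library lay above every Pro library for IFI6, ISG15, MX1 and IFI27, and not for MX2. IFI27 entered the mRNA test on its senescent libraries alone, the state in which it was higher.

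The OAS family, whose enzymes make the 2-5A messenger that activates RNase L, split by direction. OAS2 had 4, 2 and 0 mRNA reads in Pro and 27, 26 and 26 in Sen (log2 fold change 3.50 ± 0.47, edgeR adjusted p = 9.43e-07). Its pooled reads over the pooled library sizes of each state gave a ratio of 11.9 (95% counting interval 5.22 to 33.3). OASL, an OAS-like protein without that enzyme activity, had 1, 2 and 1 reads in Pro and 13, 25 and 14 in Sen, a ratio of 11.7 (4.31 to 44.6, log2 fold change 3.44 ± 0.47, edgeR adjusted p = 1.24e-06). OAS1 was under the filter, with 0, 1 and 1 reads in Pro and 13, 11 and 6 in Sen, a ratio of 13.5 (3.43 to 117). These 3 genes were close to 0 in proliferating cells and were present in every senescent library. OAS2 and OASL entered the mRNA test on their senescent libraries alone, the state in which they were higher. OAS3, the form that binds long double-stranded RNA, went the other way. It was at 23.7, 22.6 and 25.5 CPM in Pro and at 10.1, 7.54 and 8.95 CPM in Sen, a log2 fold change of -1.45 ± 0.12 (edgeR adjusted p = 5.33e-10), and kept this direction and its call in all alternative fits (-1.56 to -1.34). Per kilobase of coding sequence, mRNA coverage in senescent cells was 1.23 CPM per kb for OAS3, 0.629 for OAS1, 0.528 for OAS2 and 0.932 for OASL. In the GENCODE v44 annotation lifted to GRCh37, OAS1 (chromosome 12, 113343661-113371024), OAS3 (113375856-113414265) and OAS2 (113416200-113449528) lie head to tail on the plus strand, with 4831 and 1934 bases between them. The gene in the middle of this row fell while both its neighbours had more reads in senescent cells. In this library set 52.5% of OAS3 reads and 50.6% of OAS2 reads fell in the 3′ UTR.

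The IFIT family, whose members include cytosolic proteins that bind foreign RNA ends, moved less. IFIT3 rose by a log2 fold change of 1.13 ± 0.12, IFIT2 by 0.65 ± 0.19 and IFIT1 by 0.45 ± 0.18 (edgeR adjusted p = 4.32e-08, 0.00471 and 0.0311). For IFIT1 and IFIT2 the Pro and Sen libraries overlapped. The call for IFIT1 was lost without Pro 2 (0.33, edgeR adjusted p = 0.164) or without Sen 1 (0.30, edgeR adjusted p = 0.177). IFIT5, the family member with the highest mRNA coverage per kilobase in both states (10.7 and 10.5 CPM per kb), stood at a log2 fold change of -0.01 ± 0.10. IFI44, a cytoplasmic protein of unclear enzymatic role, rose by 0.59 ± 0.20. Exons of IFIT2 and IFIT3 overlap LIPA on the other strand, exons of MX1 overlap TMPRSS2 and those of PARP9 overlap DTX3L, and the strand rule of the counting is not given in the sources used here, so that reads of these pairs may not be separated.

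The IFITM proteins sit in cell and endosome membranes and hinder the fusion of viruses with them. Per kilobase of coding sequence, IFITM3 and IFITM2 had the highest mRNA coverage of the interferon-stimulated genes, at 596 and 456 CPM per kb in Pro and 776 and 503 CPM per kb in Sen. IFITM3 mRNA was at 319, 335 and 295 CPM in Pro and at 424, 400.0 and 406 CPM in Sen (log2 fold change 0.37 ± 0.07, edgeR adjusted p = 9.75e-05). IFITM1 rose by 0.43 ± 0.08 (edgeR adjusted p = 0.000123). IFITM2, at 238, 234 and 216 CPM in Pro and 261, 247 and 227 CPM in Sen, overlapped between states (0.09 ± 0.07, edgeR adjusted p = 0.265). The 3 genes are closely related neighbours on chromosome 11, and 10, 9 and 8 of the 12 libraries held a fractional coding count for IFITM1, IFITM2 and IFITM3, as would arise where a read is divided among several matches. In this respect, values for single IFITM genes are less certain than those for IFI6 or ISG15, which had none. In the annotation, however, exons of IFI6 overlap LINC02574 on the same strand, and those of ISG15 overlap another gene on the other strand. Reads there may not be separated.

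Of the other effectors, 4 were lower, 1 was slightly higher and 1 did not pass. XAF1, a pro-apoptotic partner of XIAP, was at 4.39, 5.55 and 4.74 CPM in Pro and at 1.17, 1.98 and 2.28 CPM in Sen (-1.41 ± 0.22, edgeR adjusted p = 6.84e-06), with 73.6% of its reads in the 3′ UTR. PARP14, a mono-ADP-ribosyltransferase, was at 32.8, 36.2 and 40.0 CPM in Pro and 21.8, 24.9 and 25.9 CPM in Sen (-0.59 ± 0.10, edgeR adjusted p = 1.59e-05). TRIM25, the ubiquitin ligase that acts on RIG-I, was at 87.9, 93.1 and 99.9 CPM in Pro and 73.4, 60.3 and 70.0 CPM in Sen (-0.47 ± 0.08, edgeR adjusted p = 3.22e-05). All 3 genes were lower in every senescent library than in any proliferating one. PARP9, which works with the ubiquitin ligase DTX3L, was at 17.7, 18.5 and 20.2 CPM in Pro and 12.7, 15.8 and 14.4 CPM in Sen (-0.39 ± 0.11, edgeR adjusted p = 0.0043). UBE2L6, the conjugating enzyme for ISG15, was at 54.3, 55.4 and 52.2 CPM in Pro and 65.8, 61.3 and 56.2 CPM in Sen (0.18 ± 0.08, edgeR adjusted p = 0.0537). The UBE2L6 call was lost without Pro 3 (0.15, edgeR adjusted p = 0.154) or without Sen 1 (0.12, edgeR adjusted p = 0.26). SAMHD1, which degrades dNTPs, stood at 0.03 ± 0.09.

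**Figure D2:**
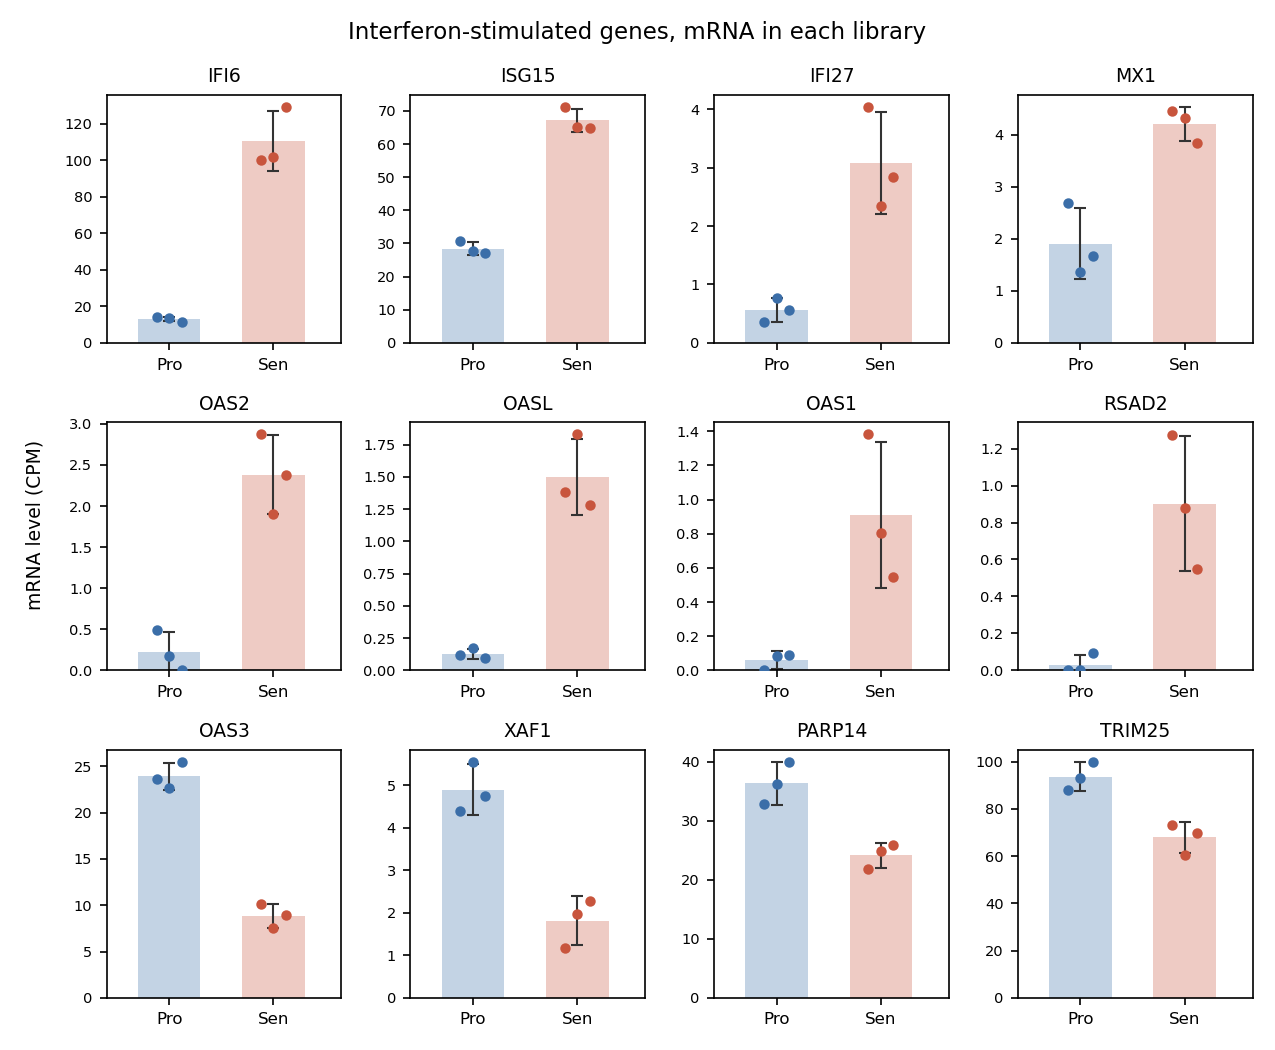
mRNA level in CPM of 12 interferon-stimulated genes in each of 3 Pro (blue) and 3 Sen (red) libraries, with bars for means and error bars for 1 SD. IFI6 stands at 11.6 to 14.0 CPM in Pro and 100.2 to 129 CPM in Sen, OAS1, OAS2, OASL and RSAD2 are close to 0 in Pro, and OAS3, XAF1, PARP14 and TRIM25 are lower in all Sen libraries.

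In all, 6 interferon-stimulated genes had too few mRNA reads for the test. RSAD2 (viperin, which makes a chain-terminating nucleotide) had 0, 0 and 1 reads in Pro and 12, 12 and 6 in Sen, a ratio of 27.1 with a wide counting interval (4.50 to 1103). CMPK2, the mitochondrial nucleotide kinase encoded next to it, had 0, 0 and 1 reads in Pro and 3, 9 and 4 in Sen (ratio 14.4, 2.24 to 605). The RSAD2 and CMPK2 gene spans share 1079 bases on opposite strands, so that some of these reads may not be separable. IFI44L had 1, 5 and 2 reads in Pro and 7, 6 and 8 in Sen (ratio 2.37, 1.01 to 6.18). BST2 (tetherin) had 3, 4 and 6 reads in Pro and 9, 9 and 11 in Sen, and ISG20, a 3′ to 5′ RNA exonuclease, had 3, 12 and 13 reads in Pro and 6, 10 and 6 in Sen. With OAS1, the senescent total was the higher for 5 of the 6 and ISG20 was the exception. When every gene with a read was tested, those 5 passed, at edgeR adjusted p values from 1.68e-05 (RSAD2) to 0.0837 (IFI44L), and ISG20 did not (0.347). The intervals cover counting error only.

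Of the transcription factors, IRF9 and IRF1 rose and STAT2 and IRF7 did not pass. IRF1, a short-lived activator of both interferon-stimulated and class I genes, was at 32.0, 32.4 and 29.7 CPM in Pro and at 39.3, 43.4 and 44.8 CPM in Sen (0.44 ± 0.09, edgeR adjusted p = 0.000108). IRF9, the DNA-binding part of the complex it forms with STAT2, rose by 0.55 ± 0.10 (edgeR adjusted p = 5.16e-05). STAT2 stood at -0.10 ± 0.07 (edgeR adjusted p = 0.245), and IRF7, which amplifies type I interferon transcription, at -0.14 ± 0.17 (edgeR adjusted p = 0.509). The sensors did not move together either. DDX58 (RIG-I), which detects uncapped RNA ends, rose by 0.87 ± 0.10 (edgeR adjusted p = 1.61e-07), and TMEM173 (STING), the adaptor downstream of cytosolic DNA, by 0.81 ± 0.09 (edgeR adjusted p = 2.96e-08). IFIH1 (MDA5), which detects long double-stranded RNA, fell by 0.59 ± 0.24 on the log2 scale (edgeR adjusted p = 0.0387). The libraries of IFIH1 overlapped, and its call was lost without Pro 1 (-0.45, edgeR adjusted p = 0.152) or without Sen 2 (-0.38, edgeR adjusted p = 0.216), while the value without Sen 3 was -0.93.

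The class I heavy chains rose by similar amounts, with HLA-F as the exception. HLA-B mRNA was at 310.0, 288 and 276 CPM in Pro and at 560, 526 and 505 CPM in Sen (0.86 ± 0.07, edgeR adjusted p = 9.15e-10). HLA-C was at 245, 240 and 219 CPM in Pro and at 442, 416 and 420 CPM in Sen (0.86 ± 0.07, edgeR adjusted p = 6.33e-10). The non-classical HLA-E, which presents leader peptides of other class I chains to natural killer cells, was at 179, 174 and 180 CPM in Pro and at 395, 401 and 411 CPM in Sen (1.18 ± 0.07, edgeR adjusted p = 1.80e-12). For each of these 3 genes the lowest senescent library was far above the highest proliferating one. HLA-F, a non-classical chain of mostly intracellular location, was low, at 7.68, 7.86 and 7.63 CPM in Pro and 8.19, 8.49 and 9.77 CPM in Sen (0.19 ± 0.13, edgeR adjusted p = 0.218). Fractional coding counts were present for HLA-B in 12 of 12 libraries, for HLA-C in 10, for HLA-E in 9 and for HLA-F in 7. Reads that match several HLA genes may thus not be separated, and how the line's own HLA sequences matched the reference was not tested.

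B2M, the light chain, was at 994, 862 and 889 CPM in Pro and at 1144, 1353 and 1014 CPM in Sen (0.36 ± 0.09, edgeR adjusted p = 0.00158). The groups were set apart by the narrow step from 994 to 1014 CPM, and without Sen 2 the log2 fold change was 0.23. Per kilobase of coding sequence, B2M was the most abundant of the 44 mRNAs, at 1308 CPM per kb in Pro and 1708 in Sen. The peptide transporter subunits rose alike. TAP1 was at 62.2, 55.7 and 51.7 CPM in Pro and 99.0, 91.1 and 95.2 CPM in Sen (0.75 ± 0.08, edgeR adjusted p = 2.88e-08), and TAP2 at 57.8, 56.9 and 56.0 CPM in Pro and 99.0, 99.3 and 104 CPM in Sen (0.83 ± 0.07, edgeR adjusted p = 1.40e-09). In the annotation, exons of TAP1 overlap the antisense gene PSMB8-AS1, exons of TAP2 an overlapping readthrough gene and those of HLA-F the antisense gene HLA-F-AS1. TAPBP rose less, from 127, 129 and 125 CPM to 152, 139 and 168 CPM (0.26 ± 0.08, edgeR adjusted p = 0.00439). NLRC5, the transactivator of class I promoters, was the only class I gene that fell, from 16.3, 15.8 and 15.4 CPM to 11.8, 10.7 and 11.6 CPM (-0.48 ± 0.11, edgeR adjusted p = 0.00062), without overlap.

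**Figure D3:**
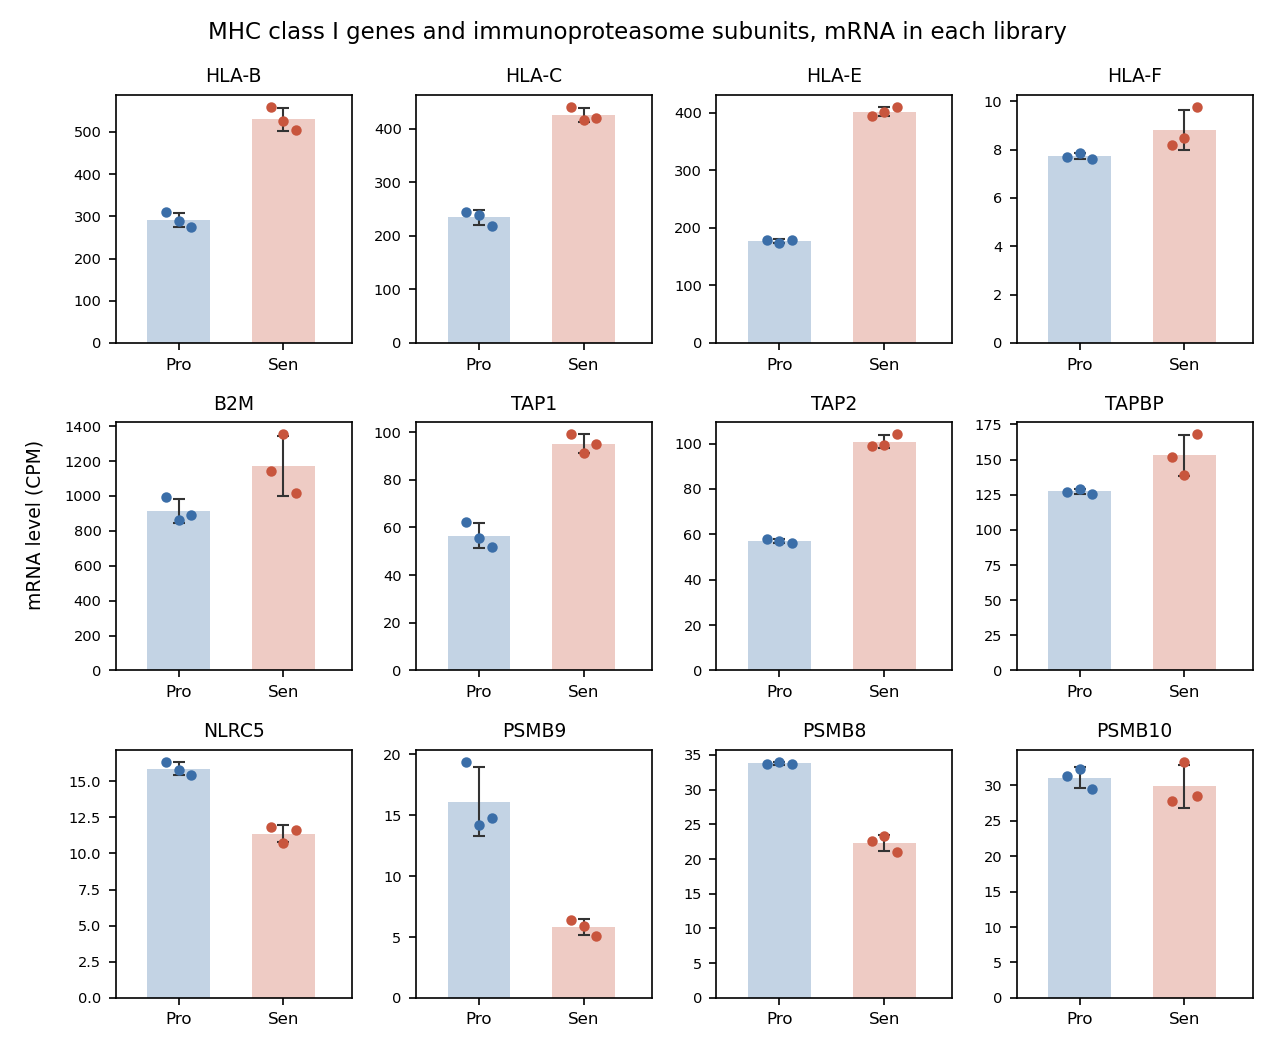
mRNA level in CPM of the 9 class I genes and of the immunoproteasome subunits PSMB9, PSMB8 and PSMB10 in each Pro (blue) and Sen (red) library, with bars for means and error bars for 1 SD. HLA-B, HLA-C and HLA-E are higher in all Sen libraries, and NLRC5, PSMB9 and PSMB8 are lower in all of them.

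Ribosome-protected fragments (RPF) in coding sequences showed how far these mRNA differences reached the ribosomes. In Ribo-seq, 25 of the 44 genes had enough reads, and 17 passed, 15 higher and 2 lower. Over 7521 genes, 54.4% passed, 27.5% higher and 26.9% lower. Of the class I genes 7 of 8 were called higher, with a median log2 fold change of 1.02 (range 0.11 to 1.25). Of the interferon-stimulated genes 8 of 17 were higher and 2 lower, with a median of 0.37 (range -0.65 to 3.46). The median over all genes was 0.00. A gene entered the test if 3 of the 6 libraries reached 16.3 CPM. IFI6 and PARP14 reached that level in all 3 libraries of the senescent state alone, IRF9, TRIM25, PARP9 and HLA-F in those of the proliferating state alone, and IFIT3 in those of neither. For IFI6 and TRIM25, and for PARP9, which was not called, this was the state in which they were higher. Over the 11 interferon-stimulated genes that reached it in both states, 7 were higher and 0 lower, with a median of 0.63, and over the 7 such class I genes 6 were higher, with a median of 1.09. The libraries of the states did not overlap for 6 of the 8 and 8 of the 17, against 32.5% of all genes. With DESeq2 in place of edgeR, 10 of the 25 passed, all of them higher, and 1164 of all genes against 4088. The 7 calls not made by DESeq2 were those of DDX58, HLA-F, IFITM2, PARP14, TAP1, TAPBP and TRIM25. Without composition scaling, 1659 of all genes were called higher and 2546 lower, in place of 2066 and 2022, and in mRNA 3861 and 5691 in place of 4684 and 4728.

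IFI6 footprints numbered 0, 18 and 40 in Pro and 396, 7 and 151 in Sen, which is 0, 25.9 and 23.1 CPM against 257, 119 and 285 CPM. The 7 reads of the shallow library Sen 2 still gave a level above every Pro library. The log2 fold change was 3.46 ± 0.22 (edgeR adjusted p = 7.04e-23). ISG15 was at 50.5, 33.1 and 33.6 CPM in Pro and 114, 68.2 and 126 CPM in Sen (1.77 ± 0.22, edgeR adjusted p = 2.18e-10). TMEM173 rose by 1.36 ± 0.26, IRF1 by 1.18 ± 0.25, IFITM1 by 1.02 ± 0.20, IFITM3 by 0.92 ± 0.16 and IFITM2 by 0.63 ± 0.17. DDX58 rose by 0.60 ± 0.24 (edgeR adjusted p = 0.035), a call that was lost without Pro 2 (0.50, edgeR adjusted p = 0.181) or without Sen 1 (0.47, edgeR adjusted p = 0.375), and the IFITM2 call was lost without Pro 3 (0.49, edgeR adjusted p = 0.169). PARP14 fell by 0.65 and TRIM25 by 0.41 on the log2 scale (edgeR adjusted p = 0.0206 and 0.12). The TRIM25 value rested in part on Sen 2, which held 0 TRIM25 reads, and was -0.33 without it (edgeR adjusted p = 0.198), -0.31 without Sen 3 (edgeR adjusted p = 0.339) and -0.77 without Sen 1. IFIT3, which rose in mRNA, stood at 0.34 ± 0.36 in RPF (edgeR adjusted p = 0.469). The other 6 tested interferon-stimulated genes did not pass either. They were IFIT5 (-0.48 ± 0.28), SAMHD1 (-0.43 ± 0.26) and PARP9 (-0.35 ± 0.32), and UBE2L6 (0.14 ± 0.31), STAT2 (0.18 ± 0.18) and IRF9 (0.37 ± 0.29).

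Among class I genes, HLA-B footprints were at 168, 219 and 181 CPM in Pro and at 452, 409 and 440 CPM in Sen (1.18 ± 0.16, edgeR adjusted p = 5.88e-09). HLA-C was at 202, 158 and 174 CPM in Pro and at 458, 358 and 342 CPM in Sen (1.25 ± 0.17, edgeR adjusted p = 2.46e-09), and HLA-E at 101, 131 and 112 CPM in Pro and 278, 171 and 232 CPM in Sen (1.09 ± 0.17, edgeR adjusted p = 2.00e-07). No Pro library reached a Sen library for these heavy chains, the shallow ones included. TAP1 was at 67.4, 31.7 and 46.3 CPM in Pro and 75.4, 68.2 and 96.2 CPM in Sen (0.95 ± 0.23, edgeR adjusted p = 0.000483). TAP2 was at 33.7, 54.7 and 49.8 CPM in Pro and 124, 102 and 102 CPM in Sen (1.18 ± 0.20, edgeR adjusted p = 1.68e-06). TAPBP was at 84.2, 120 and 109 CPM in Pro and 167, 137 and 132 CPM in Sen (0.46 ± 0.18, edgeR adjusted p = 0.0294), a call that was lost without Pro 3 (0.41, edgeR adjusted p = 0.274) or without Sen 1 (0.27, edgeR adjusted p = 0.476). B2M, at 775, 903 and 982 CPM in Pro and 1041, 802 and 1013 CPM in Sen, overlapped (0.11 ± 0.17, edgeR adjusted p = 0.616). HLA-F had 2, 16 and 36 reads in Pro and 85, 0 and 10 in Sen. Its mean level was 25.9 CPM in Pro and 24.7 CPM in Sen. The HLA-F value of 0.93 ± 0.32 (edgeR adjusted p = 0.0156) was carried by Sen 1 alone. Without Sen 1 it was -0.36 (edgeR adjusted p = 0.705), and without Pro 3 it was 0.80 (edgeR adjusted p = 0.173). NLRC5 had 2, 2 and 14 footprints in Pro and 12, 0 and 3 in Sen and was not tested.

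The other interferon-stimulated genes were too thinly covered in Ribo-seq for the test, and their raw footprints are given as read. OAS1 had 0 footprints in all Pro libraries and 6, 0 and 1 in Sen, OAS2 had 0 against 1, 0 and 2, and OASL had 0 against 2, 0 and 2. These totals rest on 3 to 7 reads. MX1 had 0, 1 and 6 footprints in Pro and 13, 2 and 10 in Sen (ratio 4.17, 95% counting interval 1.75 to 11.4), and IFI27 had 0, 1 and 3 in Pro and 14, 0 and 5 in Sen (ratio 5.54, 1.84 to 22.4). OAS3 had 0, 9 and 33 footprints in Pro and 7, 1 and 4 in Sen. When every gene with a footprint was tested, MX1, IFI27, OAS1, OASL and OAS2 were called higher (edgeR adjusted p = 0.00652, 0.0107, 0.0103, 0.0543 and 0.103) and OAS3 lower (edgeR adjusted p = 0.0151), with 0 Pro reads behind the calls of OAS1, OASL and OAS2. IFIT1, IFIT2, IFI44, IFIH1 and IRF7 had 17 to 57 footprints over the 6 libraries and did not pass there, and IFI44L had 0. RSAD2, CMPK2 and BST2 had 1 footprint each, all in Sen 1, and MX2, XAF1 and ISG20 had 4 or 5.

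Translation efficiency (TE), the footprint level over the mRNA level of the same lysate, was tested as the interaction of library type with state. Of 25 genes tested, 3 passed, all higher in senescent cells, against 9.37% of 7473 genes in either direction and 4.88% higher. The groups did not overlap for 5 of the 25, against 16.2% of all genes. The median was 0.18 for 17 interferon-stimulated genes, 0.21 for 8 class I genes and -0.01 for all genes, and 0 class I genes passed with edgeR or with DESeq2, nor did any of them fall under an unadjusted p of 0.05 in either test. The class I median was 0.03 without lysate Sen 1, and the interferon-stimulated median was 0.09 without lysate Pro 1 and 0.27 without lysate Sen 3. IRF1 had the largest of the 3 called values. Its log2 TE was -0.34, 0.06 and 0.11 in Pro and 0.81, 0.46 and 0.87 in Sen, without overlap (difference 0.75 ± 0.27, edgeR adjusted p = 0.11). IRF1 had 1, 23 and 55 footprints in Pro and 106, 3 and 43 in Sen. Its TE values in the shallow Pro 1 and Sen 2 thus rest on 1 and 3 footprints. IFITM3 stood at 0.18, -0.24 and 0.02 in Pro and at 0.37, 0.12 and 0.63 in Sen (0.52 ± 0.17, edgeR adjusted p = 0.0724), and IFITM2 at 0.31, -0.62 and -0.54 in Pro and at -0.25, -0.21 and 0.34 in Sen (0.49 ± 0.19, edgeR adjusted p = 0.136). For both IFITM genes the states overlapped at the lysate of the shallow library Pro 1. IFITM1 had a like value of 0.53 ± 0.23 and did not pass (edgeR adjusted p = 0.176).

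The 3 TE calls were weak. DESeq2 called 0 of the 25 genes, also at an unadjusted p of 0.05, and 28 of all genes. At an adjusted p of 0.05, edgeR called 0 of the 25, and 5 lay under an unadjusted p of 0.05. The calls for IRF1 and IFITM3 were lost without Pro 2 (0.73 and 0.37), Pro 3 (0.85 and 0.59), Sen 1 (0.76 and 0.58) or Sen 3 (0.74 and 0.39), and that for IFITM2 without Pro 2 (0.37), Pro 3 (0.43) or Sen 3 (0.27), while the sign held in each. The IFITM2 value without Sen 1 was 0.74. HLA-B and HLA-C stood at 0.27 ± 0.17 and 0.32 ± 0.17, IFI6 at 0.29 ± 0.27 and ISG15 at 0.44 ± 0.25, and none passed.

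**Figure D4:**
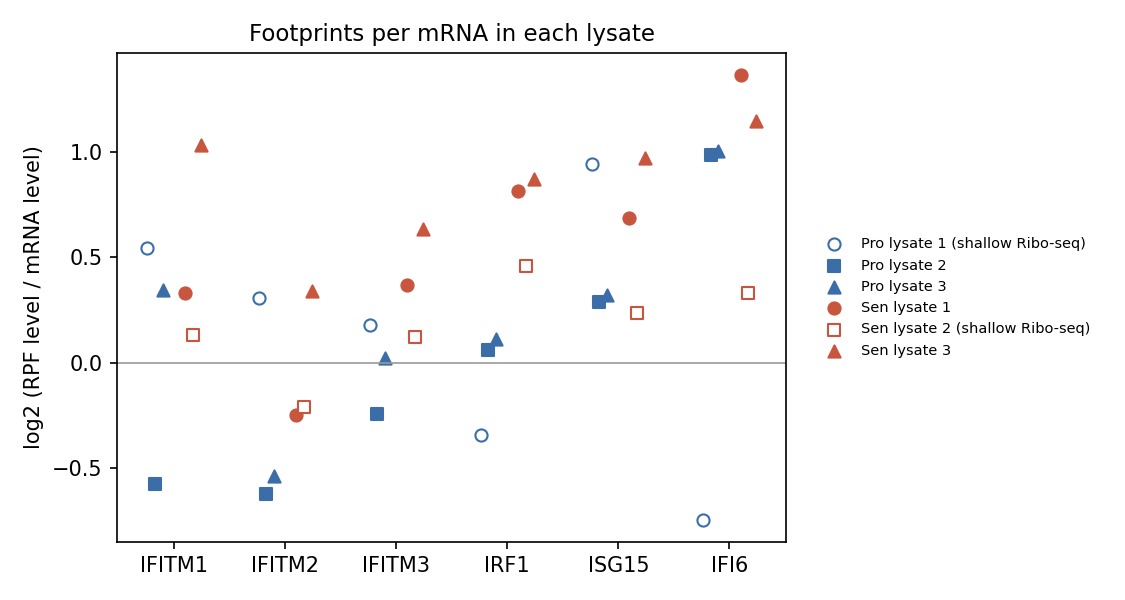
Log2 ratio of footprint level to mRNA level in each lysate for 6 interferon-stimulated genes, Pro in blue and Sen in red, with open symbols for the lysates whose Ribo-seq library was shallow (Pro 1 and Sen 2). The 3 Sen values of IRF1 (0.46 to 0.87) lie above its 3 Pro values (-0.34 to 0.11), and the groups of the other 5 genes overlap.

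Other genes of the pathway were taken from a list of 105. In mRNA 78 were tested, 25 higher, 29 lower and 24 not called, with a median log2 fold change of -0.03, and in RPF 53 were tested, 13 higher and 11 lower. The shares called were 69.2% in mRNA and 45.3% in RPF, against 73.6% and 54.4% of all genes. The list held other interferon-stimulated genes, of which 33 were tested in mRNA. They were evenly split, with 13 higher and 13 lower (78.8% called) and a median of -0.09, unlike the listed members. In RPF 22 of them were tested, 7 higher and 5 lower, with a median of 0.20. Interferon transcripts were near 0. IFNB1, IFNA2, IFNG, IFNK, IFNL1, IFNL2 and IFNL3 had 0 mRNA reads in all 6 libraries, IFNA1 had 2 and IFNE 10 in all, and none had a footprint. A count of 0 allows a level of up to 0.22 to 0.366 CPM per library, the level of 3 reads. The receptor chains were present and mostly higher in senescent cells. IFNAR1 rose by a log2 fold change of 0.61 ± 0.09, IL10RB by 0.57 ± 0.09, IFNGR1 by 0.50 ± 0.09 and IFNGR2 by 0.32 ± 0.07, IFNAR2 stood at 0.01 ± 0.12, and IFNLR1 had 78 reads in all and was not tested. In RPF only IFNGR2 passed among the receptors (0.89 ± 0.36, edgeR adjusted p = 0.0402). That value rested on 1, 11 and 22 footprints in Pro and 41, 0 and 14 in Sen. The IFNGR2 groups overlapped, with mean levels of 15.1 CPM in Pro and 17.7 CPM in Sen. The kinase JAK1 fell by 0.28 on the log2 scale (edgeR adjusted p = 0.000967), while JAK2 (-0.13 ± 0.14) and TYK2 (-0.02 ± 0.09) did not pass.

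At the ends of that list, the highest called mRNA values were those of CD274 (PD-L1), at 0.98 ± 0.11, TNFSF10 (TRAIL), at 0.97 ± 0.36, TRIM22, at 0.94 ± 0.09, and HERC6, at 0.89 ± 0.19. The lowest were those of SOCS1, a feedback inhibitor of JAK kinases (-2.00 ± 0.14), PSMB9 (-1.46 ± 0.15), the endosomal RNA sensor TLR3 (-1.38 ± 0.26) and the nuclear DNA sensor IFI16 (-1.38 ± 0.08). The TNFSF10 value rested on few reads, 5, 6 and 10 in Pro and 19, 15 and 12 in Sen. TNFSF10 reached the filter level of 0.922 CPM in every Sen library but not in every Pro library. Its footprints, 0, 3 and 7 in Pro and 2, 0 and 0 in Sen, were not tested. PSMB9 is an immunoproteasome subunit encoded next to TAP1. In the lifted GRCh37 annotation, PSMB8 (chromosome 6, 32808494-32812456), PSMB9 (32811913-32827628, plus strand) and TAP1 (32812986-32821593, minus strand) lie within the same short stretch, with 529 bases between TAP1 and PSMB8 and with the PSMB9 span running over the whole of TAP1. PSMB9 mRNA was at 19.4, 14.2 and 14.8 CPM in Pro and 6.38, 5.93 and 5.12 CPM in Sen, PSMB8 fell by 0.60 on the log2 scale, and PSMB10 stood at -0.05 ± 0.09. In RPF, PSMB9 fell by 1.56 and PSMB8 by 0.59 on the log2 scale (edgeR adjusted p = 0.00244 and 0.0434). The transporter and immunoproteasome genes of this stretch thus moved in opposite directions in both layers. Of 13 other genes of class I processing and loading, 4 rose and 5 fell in mRNA (69.2% called, against 73.6% of all genes). In TE 4 of 53 tested genes of the wider list passed (7.55%, against 9.37% of all genes), and they are named after their values were seen. SP100, a nuclear body protein, fell by 0.90 on the log2 scale (edgeR adjusted p = 0.00118), the peptide trimmer ERAP1 by 0.66 (edgeR adjusted p = 0.108) and the RNA-activated kinase EIF2AK2 by 0.59 (edgeR adjusted p = 0.136), and TRIM5, a capsid-binding restriction factor, rose by 0.69 (edgeR adjusted p = 0.125).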

How the data were processed

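Ribo-seq and poly(A) RNA-seq libraries of IMR90 lysates (3 Pro and 3 Sen, 12 libraries) were analysed from the read tables that the authors deposited, which give estimated counts per gene symbol and region (5′ UTR, CDS, 3′ UTR and non-coding classes), some of them fractions of a read. The submitters' processing notes name cutadapt 1.18, Bowtie 1.0.1, SAMtools 1.8 and DESeq2 1.22.2. The genome build, the strand rule and the treatment of reads with several matches are not given in the sources used here, so values of paralogues and of overlapping genes are uncertain. Non-coding columns were not used.

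mRNA was the sum of the 3 coding-gene regions in RNA-seq, and RPF was the CDS column in Ribo-seq, each rounded to whole counts. Of 38716 symbols, 16451 with a CDS read entered. Each layer was fitted on its own 6 libraries with edgeR 4.0.16 (R 4.3.3): filterByExpr, TMM factors, quasi-likelihood test of state, Benjamini-Hochberg adjustment over all genes tested and a two-sided threshold of 0.15. TE was the interaction of library type with state over 12 libraries, with the lysate as a block, because both libraries of a lysate come from the same material. Deviations of the paired libraries correlated at r from -0.046 to 0.059. Log2 TE per lysate used 0.5 added counts. DESeq2 1.42.0 was an alternative. The fits were tested on simulated data. No 2 libraries agreed within sampling noise. Groups came from the sample labels, and p-values measure the spread between these cultures.

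Counting intervals are exact at a confidence level of 0.95 and, like the floor of 3 counts, cover counting error only. Ratios given with these intervals are of reads pooled over the libraries of each state, divided by the pooled scaled library sizes. Deep libraries therefore weigh most in them, and they are not ratios of mean CPM. The members and the pathway and marker lists were chosen with earlier results of these data known. Values by library are given for all class I genes, for the interferon-stimulated genes with the 6 highest and 6 lowest called mRNA changes without overlap, and for TE calls; of the pathway list, the receptors, kinases and the 4 highest and 4 lowest called genes are named. Some genes of that list are not reported here. The symbol MB21D1 in that list was matched as CGAS. Positions were read from GENCODE v44 lifted to GRCh37, and promoters from RefSeq on GRCh38.p14. Other alternatives were RLE factors, library totals, other filters, CDS reads only in RNA-seq, and leaving out libraries.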

Additional observations from a re-analysis of the deposited data

Results flagged for a closer look

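Ribo-seq reads outside coding sequences were not part of any comparison above. At least 20 such reads over the 6 libraries were present in the 5′ UTR of B2M and TAPBP and in the 3′ UTR of DDX58, HLA-B and HLA-E. Of these 5, only DDX58 (RIG-I) had a higher level in every senescent library than in any proliferating one. It had 0, 0 and 1 reads in Pro and 10.3, 1 and 9 reads in Sen, which is a mean of 0.172 and 5.33 reads per 1000000 assigned reads. The value in Sen 2 rests on 1 read, and no test was made.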

How the results depend on the processing

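Of 31 mRNA calls, 28 were kept in every alternative, and IFIT1, IFIH1 and UBE2L6 lost theirs in some. Of 17 RPF calls, 10 were kept in all and 7 were lost in some (DDX58, HLA-F, IFITM2, PARP14, TAP1, TAPBP and TRIM25), each of them with DESeq2. None of the 3 TE calls was kept in all. Library totals in place of composition factors moved the median of all genes to -0.111 in mRNA and to -0.137 in RPF, and gave a class I mRNA median of 0.65 (leave-one-out 0.69 to 0.82). Signs turned for 4 mRNA values near 0 and for 3 RPF values, of which HLA-F was a call. In mRNA these were IFITM2 (-0.01 with library totals), SAMHD1 (-0.04 with CDS reads only, -0.08 with library totals, -0.06 to 0.09 leaving out a library), IFIT5 (-0.09 to 0.04) and MX2 (-0.07 to 0.22). In RPF they were B2M (-0.01 with library totals, -0.00 with at least 10 counts in every library), UBE2L6 (-0.11 with the replicate number as a block) and HLA-F (reported as 0.93, -0.10 with the block, -0.36 to 1.24 leaving out a library). RPF calls among the members numbered 10 with DESeq2 and 4 with at least 10 counts in every library, where 5 members could be tested. TE calls numbered 0 with DESeq2, 0 with every gene of at least 1 read (5 at an unadjusted p of 0.05), 1 with at least 10 counts in every library, 6 with no replicate block, 0 at an adjusted p of 0.05 and 0 to 4 leaving out a lysate. The TE median of the interferon-stimulated genes was 0.41 over every gene with a read, 0.39 under the filter of 10 counts, 0.09 with no replicate block and 0.09 to 0.27 leaving out a lysate, and the class I TE median was 0.03 to 0.29. Where fewer genes or samples enter, the list itself changes, and otherwise the cause was not tested.

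Replicate numbers shared between the states were not used as pairs in the reported fits of each layer, since the labels do not say whether they pair the samples. Deviations of same-numbered libraries correlated at 0.032, -0.101 and 0.124 in mRNA and at 0.029, 0.029 and 0.01 in RPF, and 2 of 6 mRNA and 6 of 6 RPF libraries correlated best with their own number, a hint from the data and not from the design. With the replicate number as a block, 31 members were called in mRNA and 13 in RPF, where the calls of DDX58 (0.40, edgeR adjusted p = 0.497), PARP14 (-0.60, 0.252), TAPBP (0.37, 0.325) and HLA-F (-0.10, 0.926) were not made, and 9425 and 2336 of all genes in place of 9412 and 4088. Over all genes, RPF calls numbered 1164 with DESeq2, 605 with at least 10 counts and 2681 without Sen 1. TE calls numbered 700 in the reported test, 28 with DESeq2, 440 with every gene of at least 1 read, 230 under the filter of 10 counts, 1342 with no replicate block and 1197 without the 2 shallowest lysates. Leaving out 1 lysate gave 1165 without Pro 1, 134 without Pro 2, 179 without Pro 3, 174 without Sen 1, 755 without Sen 2 and 166 without Sen 3. Composition factors over genes kept in both layers, chosen after seeing the data, gave 746 TE calls and 4 among the members. With the 2 shallowest Ribo-seq libraries at 54421 and 54708 reads, a gene under about 50 CPM has 3 reads or fewer there.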
